A study of Mus musculus with 12 samples.

Results

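The genes described here are 60 mouse genes of mitosis and chromosome segregation, taken by symbol from the expression table of a macrophage study. They cover spindle and centrosome proteins, the chromosomal passenger complex, the spindle checkpoint, kinases and cyclins of mitotic entry, centromere and kinetochore proteins, cytokinesis factors, mitotic kinesins, condensin and the proliferation markers Mki67, Top2a and Pimreg. Symbols not listed in the table were left out of the set, so all 60 are among its 38739 symbols. Of the 60, 56 passed the filter on low values, among 11887 genes in all, while Aspm, Ect2, Kif14 and Kif18a did not.

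Bone marrow-derived macrophages (BMDMs), macrophages grown in culture from bone marrow cells, were prepared from wild-type (WT) and cGAS-/- mice. The cells were left untreated with media alone (UT) or were stimulated with LPS, the endotoxin of Gram-negative bacteria, and RNA of 12 samples was sequenced, 3 for each pairing of genotype and treatment (WT UT, cGAS-/- UT, WT LPS and cGAS-/- LPS). The comparison asked how macrophages without the cytosolic DNA sensor cGAS differ from WT cells at rest and after LPS.

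WT cells came from C57BL/6J mice bought from a supplier and cGAS-/- cells from mice of the same background obtained from another laboratory, so source of the mice and genotype cannot be told apart. The deletion was not limited to macrophages, and the methods give male mice of 8 weeks. The labels give LPS at 100 ng/mL for 1 h, whereas the methods describe a higher dose and 24 h, so the exposure behind the LPS values is not settled. The labels' extraction step names neutrophils rather than macrophages. A legend of the study names each set of 3 as technical replicates, and the p-values below then measure only the spread between these samples.

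Most of these genes are silent in resting cells and are transcribed late in the cell cycle, from G2 to mitosis. The DREAM complex holds them down in quiescence, and B-MYB with the MuvB core and FOXM1 switch them on, largely through CCAAT boxes and the cell cycle genes homology region (CHR) of their promoters. BMDMs divide in culture under macrophage colony-stimulating factor, and LPS is known to arrest that division. In bulk RNA, fewer cells in mitosis and less RNA of these genes per cell cannot be told apart.

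The table holds TPM values that appear to be averaged over the transcripts of a symbol, so levels of different genes are not strictly comparable. The tests compare samples within 1 gene, while sums over genes and the choice of named genes do use levels across genes. Cgas (GRCm39, chr9:78337802-78350535, minus strand) lay at 1.19 to 3.25 TPM in the 6 WT samples and at 0.0703 to 0.291 TPM in the 6 cGAS-/- samples, which matches the labels. One library stood apart: in WT LPS replicate 3 all values added up to 709802, against 447189 to 503156 in the 11 others, with 31.7% of that sum in the pseudogene Fth-ps3. Protein-coding genes made up 18.5% there and 39.7 to 54.4% in the rest. Over all genes tested, the median SD of a group on the log2(TPM + 1) scale was 0.635 in WT LPS and 0.119 to 0.146 in the other groups. Over the 60 mitosis genes it was 0.168 in WT LPS and 0.0869 to 0.133 in the other groups. Because the spread is pooled over all 12 samples, this library also bears on tests that do not compare it. For the genes whose values in UT cells are described below, a call between genotypes in UT cells that changed without this library is given both ways.

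The mitosis genes were high in WT UT and low in the other 3 groups. Summed over the 60 genes, the level was 244, 265.9 and 255.9 TPM in WT UT and 82.19, 81.7 and 84.22 TPM in cGAS-/- UT. After LPS it was 36.35, 47.97 and 25.49 TPM in WT and 47.88, 44.11 and 49.19 TPM in cGAS-/- cells. The WT UT samples stood apart from all others, the cGAS-/- UT samples came next, and the LPS samples of both genotypes overlapped. The plots of the summed level show the same order in most of the 9 role groups.

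**Figure D1:**
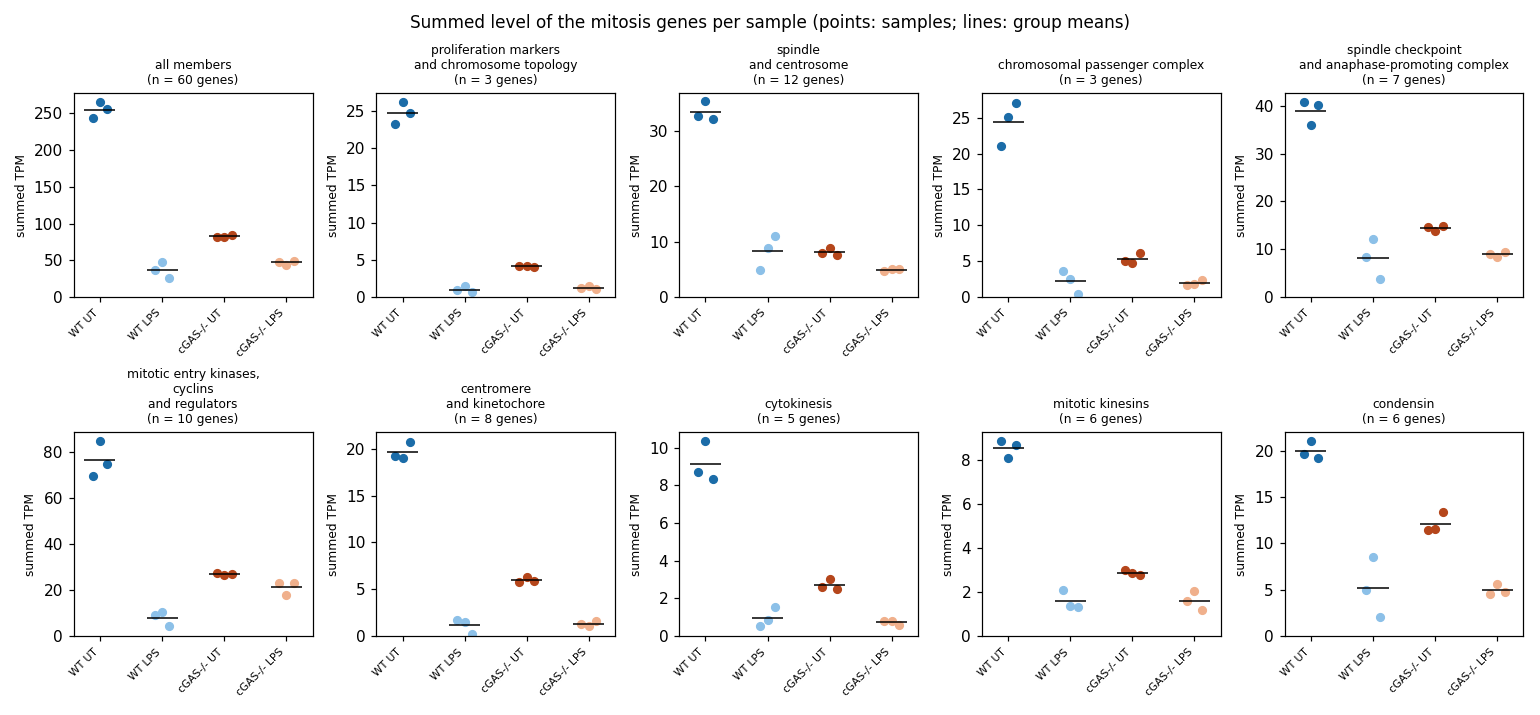
Summed level in TPM (vertical axes, starting at 0) of all 60 genes and of each role group, by group of samples. Points are samples and lines are means of 3 samples. In the first panel WT UT lies at 244 to 265.9 TPM, cGAS-/- UT at 81.7 to 84.22 TPM, and the LPS samples at 25.49 to 49.19 TPM.

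**Figure D2:**
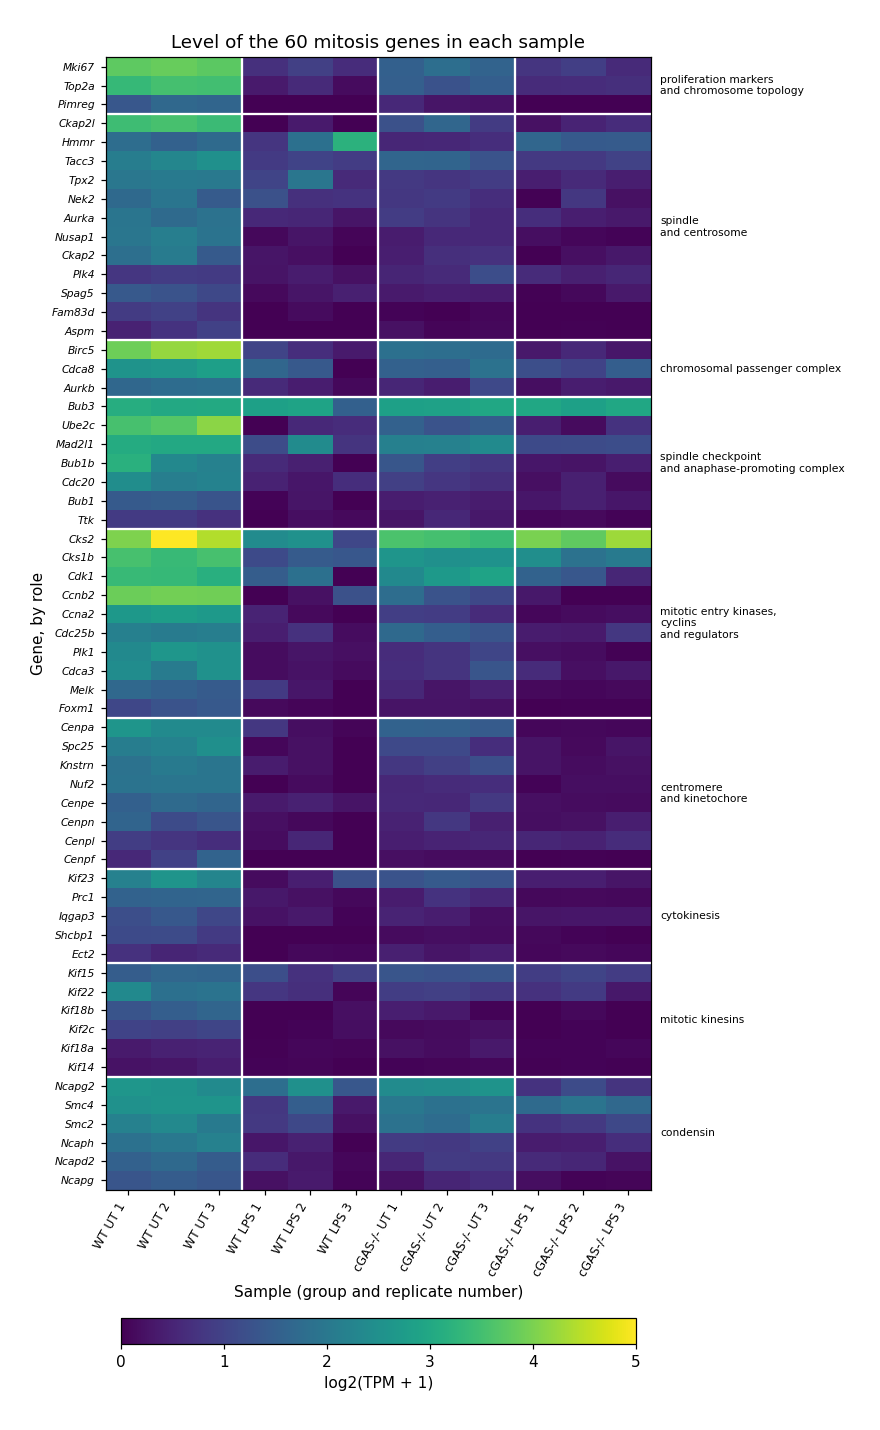
Level of each of the 60 genes (rows, by role) in each of the 12 samples (columns), as log2(TPM + 1) on the colour scale. The 3 WT UT columns are the brightest in nearly every row, Bub3 is nearly even outside WT LPS replicate 3, Hmmr is brightest in WT LPS replicate 3, and Cks2 stays bright in cGAS-/- LPS.

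In untreated cells, 37 of the 56 tested mitosis genes were lower in cGAS-/- than in WT at an adjusted p under 0.05 (limma, adjusted over 11887 genes), against 1.58% of all genes tested. None was higher (0 also at an unadjusted p under 0.05), against 0.252% of all genes tested. All 56 fold changes were negative, with a median log2 fold change of -0.99 against -0.04 over all genes tested. In TPM, the ratio of the WT to the cGAS-/- mean had a median of 4.05 over the 60 genes and ran from 1.04 to 25.9, against a median of 1.03 over the genes tested. Of the 56, 10 passed the filter through the WT UT samples alone, where they were high, and without the filter 34 of 60 were lower, against 0.831% of 23590 genes. Groups did not overlap for 57 of the 60, with all 3 cGAS-/- samples below all 3 WT samples, against 12% of genes listed above 0; the exceptions were Ncapg2, Plk4 and Smc2. A log2 fold change below -2, the size that the study asked for, was reached by Ccnb2, Ube2c, Birc5, Ckap2l, Mki67 and Top2a, 6 of 56 against 0.337% of genes.

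**Figure D3:**
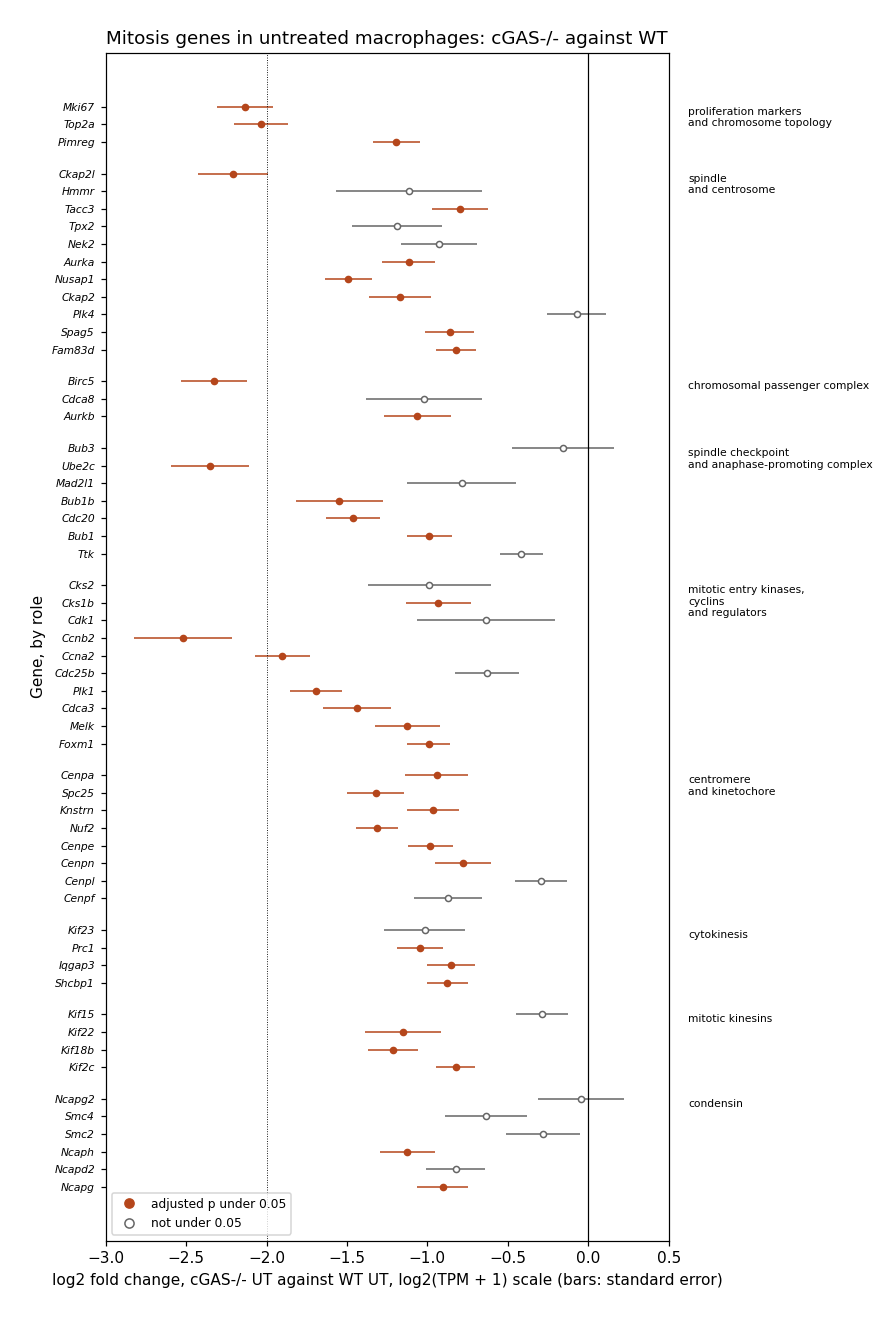
Log2 fold change of cGAS-/- UT against WT UT (horizontal axis, log2(TPM + 1) scale) for the 56 tested genes, by role, with standard errors. Filled points passed an adjusted p under 0.05 (37 genes); the dotted line marks -2. The fold changes run from -2.52 for Ccnb2 to -0.04 for Ncapg2.

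All 3 proliferation and chromosome topology genes fell in cGAS-/- UT cells. Mki67 (chr7:135291513-135318299), which encodes the Ki-67 protein that coats mitotic chromosomes, was at 12.6, 13.3 and 12.3 TPM in WT UT and at 1.88, 2.51 and 2.01 TPM in cGAS-/- UT. Top2a (chr11:98883769-98915062), the topoisomerase that untangles sister chromatids, was at 9.15, 10.6 and 10.2 TPM in WT and at 1.85, 1.4 and 1.8 TPM in cGAS-/- cells. For both, the lowest WT sample lay several times above the highest cGAS-/- sample. The log2 fold change was -2.14 ± 0.17 (SE) for Mki67 (limma adjusted p = 0.000123) and -2.03 ± 0.17 for Top2a (adjusted p = 0.000128).

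Of the kinases, cyclins and regulators of mitotic entry 7 of 10 were lower. Ccnb2 (chr9:70314966-70328874), cyclin B2, was at 13.7, 14.2 and 14.1 TPM in WT and at 2.47, 1.43 and 1.11 TPM in cGAS-/- UT cells, and its log2 fold change of -2.52 ± 0.30 was the most negative of the 56 (limma adjusted p = 0.00121). Ccna2, cyclin A2, fell by 1.90 on the log2 scale and Plk1, the polo-like kinase of mitotic entry and spindle assembly, by 1.69. Foxm1, the transcription factor named above, fell by 0.99, from 1.08, 1.42 and 1.63 TPM to 0.199, 0.201 and 0.174 TPM. Cks1b and Cks2 encode small subunits that bind Cdks. Cks1b was at 10.7, 9.35 and 10.7 TPM in WT and 5.06, 4.71 and 4.87 TPM in cGAS-/- cells (log2 fold change -0.93 ± 0.20, limma adjusted p = 0.0407). Cks2 was at 15.4, 31 and 20.4 TPM in WT and at 10.9, 10.5 and 9.5 TPM in cGAS-/- cells, groups that did not overlap. The test missed the threshold (-0.99 ± 0.38, limma adjusted p = 0.426) and passed it without WT LPS replicate 3, with the same fold change (adjusted p = 0.0314). Cks1b and Cks2 share 21.2% and 30.5% of their longest transcripts, at 95% identity or more, with transcripts of other symbols, so their values are less certain. Cdk1, the mitotic kinase itself, had a log2 fold change of -0.64 and did not pass (adjusted p = 1).

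In the spindle and centrosome group 7 of 11 tested genes were lower. Ckap2l (chr2:129110130-129139222), which encodes a spindle-associated protein, was at 9.84, 10.6 and 9.59 TPM in WT and at 1.35, 2.13 and 0.839 TPM in cGAS-/- UT cells (log2 fold change -2.21 ± 0.22, limma adjusted p = 0.000334). Nusap1, which bundles spindle microtubules, fell by 1.49 and Aurka, the centrosomal Aurora kinase, by 1.12. Hmmr (chr11:40592167-40624288), a spindle protein also known as a hyaluronan receptor, was at 2.46, 1.95 and 2.34 TPM in WT and at 0.443, 0.468 and 0.584 TPM in cGAS-/- cells. These values did not overlap, yet the test, which pools the spread with the uneven WT LPS samples, gave -1.11 ± 0.45 and an adjusted p of 0.488. Without WT LPS replicate 3 the fold change was the same and the adjusted p was 0.0232. Plk4, the kinase that starts centriole duplication, was at 0.738, 0.855 and 0.802 TPM in WT and at 0.44, 0.521 and 1.28 TPM in cGAS-/- cells, so the groups overlapped.

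Of the chromosomal passenger complex, which corrects chromosome attachment, 2 of 3 genes were lower. Birc5 (chr11:117740040-117746581), the survivin subunit, was at 13.9, 17.5 and 18.6 TPM in WT UT and at 2.61, 2.51 and 2.36 TPM in cGAS-/- UT (log2 fold change -2.33 ± 0.21, limma adjusted p = 0.000206). Aurkb, its kinase, fell by 1.06. Cdca8, the borealin subunit, was at 4.96, 5.21 and 6.04 TPM against 1.95, 1.86 and 2.69 TPM, with a log2 fold change of -1.02 ± 0.36 that did not pass over all 12 samples (adjusted p = 0.331) and passed without WT LPS replicate 3 (adjusted p = 0.00505).

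Among checkpoint and anaphase-promoting complex genes 4 of 7 were lower, with log2 fold changes from -2.35 to -0.16. Ube2c (chr2:164611768-164620742), the ubiquitin-conjugating enzyme of the anaphase-promoting complex, was at 10.8, 11.8 and 16.4 TPM in WT and at 1.95, 1.43 and 1.76 TPM in cGAS-/- UT cells (log2 fold change -2.35 ± 0.24, limma adjusted p = 0.000403). Bub3 (chr7:131161880-131178553), a checkpoint protein, was at 7.62, 7.09 and 7.2 TPM against 6.17, 6.3 and 6.9 TPM, a log2 fold change of -0.16 ± 0.32 (adjusted p = 1). Bub1b, the checkpoint protein BubR1, fell by 1.55 and Cdc20, the activator of the anaphase-promoting complex, by 1.46.

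Of the 8 centromere and kinetochore genes 6 were lower. Cenpa, the histone H3 variant that marks centromeres, was at 5.11, 4.23 and 4.26 TPM in WT and at 1.99, 1.92 and 1.71 TPM in cGAS-/- cells (log2 fold change -0.94 ± 0.20, limma adjusted p = 0.035). Spc25, a subunit of the NDC80 complex that holds microtubules, was at 3.35, 3.67 and 4.65 TPM against 1.16, 1.14 and 0.583 TPM (-1.32 ± 0.18, adjusted p = 0.00229). Nuf2, another NDC80 subunit, fell by 1.31.

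Of the tested cytokinesis genes 3 of 4 were lower, as were 3 of 4 mitotic kinesins. Prc1, which bundles microtubules of the central spindle, was at 1.97, 2.06 and 2.09 TPM in WT and at 0.296, 0.672 and 0.466 TPM in cGAS-/- UT cells (log2 fold change -1.05 ± 0.14, limma adjusted p = 0.00252). Kif23, a kinesin of the central spindle, was at 3.59, 5.05 and 3.84 TPM against 1.44, 1.68 and 1.47 TPM, and its log2 fold change of -1.02 ± 0.25 missed the threshold over all 12 samples (adjusted p = 0.0832) and passed it without WT LPS replicate 3 (adjusted p = 0.00211). Kif22, a kinesin that binds chromosome arms, was at 4.18, 2.6 and 2.72 TPM against 0.869, 0.922 and 0.76 TPM (-1.15 ± 0.24, adjusted p = 0.0318). Kif15, a kinesin that acts beside Eg5 on spindle microtubules, was at 1.78, 2.15 and 2.07 TPM against 1.49, 1.4 and 1.48 TPM, with a log2 fold change of -0.29 ± 0.16 (adjusted p = 0.877).

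Condensin, the complex that compacts chromosomes, had the smallest differences, with 2 of 6 genes lower and a median WT to cGAS-/- ratio of 2.31 against 3.4 to 5.97 in the other role groups; the difference between role groups was not tested. Ncaph and Ncapg, both of condensin I, fell by 1.13 and 0.91 on the log2 scale. Smc4, a core subunit of both condensins, was at 4.78, 5 and 4.99 TPM in WT and at 2.99, 2.64 and 2.81 TPM in cGAS-/- cells (-0.64 ± 0.25, limma adjusted p = 0.462). Ncapg2 (chr12:116368940-116427351), of condensin II, was at 5.17, 4.9 and 4.22 TPM against 4.33, 4.51 and 4.91 TPM, overlapping values with a log2 fold change of -0.04 ± 0.27 (adjusted p = 1).

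The count of 37 depended on how low values were weighted. With a pseudocount of 0.1 in place of 1 it was 7, although all 56 fold changes stayed negative and their median was -1.88, and with a filter of 5 TPM it was 17 of the 33 genes tested. Leaving out each of the 12 samples in turn gave 26 to 44. The 44 came without WT LPS replicate 3, when Cdca8, Cks2, Hmmr, Kif23, Ncapd2, Nek2 and Tpx2 passed as well. Among the genes described above, the call held in 8 of 23 alternatives for Cenpa, in 10 for Cks1b and in 11 for Kif22.

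Promoter sequences are shown for 3 genes with the largest fall in cGAS-/- UT cells and for 2 with the smallest change, to set the CCAAT box and the CHR beside the expression values. Each run is the 250 bases before the annotated start, 5′ to 3′ on the gene's strand, from RefSeq on GRCm38.p6. Capitals mark letter matches to the CCAAT box, which reads ATTGG where it lies on the other strand, and to the CHR. The CHR was searched with the letters TTTGAA, which read TTCAAA on the other strand, and also with the letters TTCGAA.
Ccnb2 (chr9:70421555-70421804, minus strand): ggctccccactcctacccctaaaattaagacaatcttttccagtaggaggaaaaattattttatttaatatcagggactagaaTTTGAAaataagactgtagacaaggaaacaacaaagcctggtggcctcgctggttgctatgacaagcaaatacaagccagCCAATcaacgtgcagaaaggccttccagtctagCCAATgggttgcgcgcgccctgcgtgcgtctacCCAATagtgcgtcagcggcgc
Ube2c (chr2:164769679-164769928, plus strand): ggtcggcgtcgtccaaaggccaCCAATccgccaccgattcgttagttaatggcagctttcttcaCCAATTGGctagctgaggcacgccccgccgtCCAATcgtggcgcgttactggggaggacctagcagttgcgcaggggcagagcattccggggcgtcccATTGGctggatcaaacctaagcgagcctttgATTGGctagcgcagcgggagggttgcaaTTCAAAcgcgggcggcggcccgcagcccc
Birc5 (chr11:117848987-117849236, plus strand): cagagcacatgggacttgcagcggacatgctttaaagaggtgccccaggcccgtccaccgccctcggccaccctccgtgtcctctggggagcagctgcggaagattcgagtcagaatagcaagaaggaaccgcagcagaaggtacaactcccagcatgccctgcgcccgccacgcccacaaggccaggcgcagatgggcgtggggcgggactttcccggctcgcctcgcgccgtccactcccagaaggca
Ncapg2 (chr12:116405186-116405435, plus strand): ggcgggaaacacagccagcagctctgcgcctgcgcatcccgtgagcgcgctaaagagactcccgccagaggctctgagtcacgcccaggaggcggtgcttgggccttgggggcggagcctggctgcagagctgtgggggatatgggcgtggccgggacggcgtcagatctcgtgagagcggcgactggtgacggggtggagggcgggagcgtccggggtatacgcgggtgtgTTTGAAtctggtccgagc
Plk4 (chr3:40799701-40799950, plus strand): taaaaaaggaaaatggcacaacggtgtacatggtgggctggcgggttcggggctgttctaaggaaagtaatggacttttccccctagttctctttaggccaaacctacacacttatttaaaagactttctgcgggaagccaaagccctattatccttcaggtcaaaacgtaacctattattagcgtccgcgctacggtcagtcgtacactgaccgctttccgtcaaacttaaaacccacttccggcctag
Ccnb2 held 3 CCAAT boxes and 1 CHR match, which lay before all 3 boxes. With the next 50 bases after the start included, Ccnb2 held 2 TTTGAA matches, the added one lying outside the printed run. Ube2c held 6 CCAAT matches, of which 1 pair on opposite strands overlaps, and 1 CHR match. Birc5 and Plk4 held neither motif, and Ncapg2 held 1 CHR match and no CCAAT. Matches in these windows thus did not sort these 5 genes by their change. RefSeq promoters were found for 53 of the 60 genes, all but Aurkb, Ccna2, Foxm1, Pimreg, Shcbp1, Smc4 and Tpx2. Counting both strands, CCAAT was in 73.6% of the 53 and in 37.5% of the 27025 genes with a promoter, and a CHR match was in 47.2% and 19.6%. With the next 50 bases after the start included, a CHR match was in 75.5% of the 53 and in 21.7% of all genes with a promoter, and both motifs were in 67.9% and 9.65%. Over that longer window, a CHR match was in 75% of the 32 promoters of genes called lower in cGAS-/- UT cells and in 76.2% of the 21 others.

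Other genes of the cell cycle were counted in the same comparison of UT cells; the difference between lists was not tested. Of 36 tested genes of S phase and DNA replication 6 were lower, against 1.58% of all genes tested, with a median log2 fold change of -0.50. Rrm2, a subunit of ribonucleotide reductase, fell by 2.12 and Tk1, thymidine kinase, by 1.43. Of 36 G1 cyclin, CDK inhibitor and DREAM or E2F genes 2 were lower, E2f8 (an E2F family repressor) by 1.22 and Ccne2 (cyclin E2) by 1.18. Of 31 other cell cycle-regulated mitotic genes 7 were lower, led by Aunip, an Aurora-A partner, at -1.96 and Stmn1, the microtubule-destabilising stathmin, at -1.74. Of 22 genes of cohesin and the anaphase-promoting complex core, which cells use outside mitosis too, 0 were lower and 0 higher in limma (1 and 0 at an unadjusted p under 0.05), and their median was -0.09. With LPS, 0 genes of these 4 lists differed between genotypes in limma, against 1% of all genes lower and 1.36% higher. At an unadjusted p under 0.05, 1 S phase gene was then lower and 4 higher, 5 G1 and E2F genes were higher, 1 other mitotic gene was lower and 2 higher, and 4 cohesin and anaphase-promoting complex genes were higher.

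Markers of other cells of bone marrow cultures also moved with the groups, and their part in the result was not tested. As background to the calls below, 1.58% of all genes tested were lower and 0.252% higher in cGAS-/- UT cells. With LPS these shares were 1% and 1.36%. The 14 listed B cell markers summed to 110.8 to 136 TPM in WT UT, 20.79 to 29.51 TPM in cGAS-/- UT, 31.02 to 46.3 TPM in WT LPS and 3.453 to 9.578 TPM in cGAS-/- LPS. Igkc, the kappa light chain constant gene, was the 1 of 5 tested that was lower in cGAS-/- UT, at -3.52. Ighm, the immunoglobulin mu heavy chain gene, was at 42.8, 37.3 and 36.3 TPM in WT UT and at 20.01, 17.5 and 15.6 TPM in cGAS-/- UT, values that did not overlap (-1.09, limma adjusted p = 0.584). Of the genes that define the lineage, Pax5 was at most 0.0221 TPM, Rag1 was listed at 0 in every sample and Cd79a reached 2.49 TPM. With LPS, Igkc and Cd79a were lower in cGAS-/- cells, at -2.92 and -1.25. The 13 neutrophil markers summed to 186.1 to 259.7 TPM in WT UT, 88.63 to 170.5 TPM in cGAS-/- UT, 142.5 to 535.4 TPM in WT LPS and 453.2 to 508.1 TPM in cGAS-/- LPS, and in UT cells 4 of 11 tested were lower, with Ngp at -3.34 and Chil3 at -1.82. With LPS, 1 of the 11, Padi4, was lower in cGAS-/- cells, at -1.07. The 12 myeloid precursor markers summed to 29.66 to 32.3 TPM in WT UT and 38.94 to 44.16 TPM in cGAS-/- UT, with Sox4 higher by 1.57 and Elane lower by 0.89, while Mpo was at most 0.257 TPM. After LPS these precursor markers were at 7.029 to 18.52 TPM in WT and 12.29 to 12.93 TPM in cGAS-/- cells. Of 5 tested erythroid and 3 tested dendritic cell markers 0 differed between genotypes in limma, and 1 of each list was lower in 1 of the comparisons at an unadjusted p under 0.05. The erythroid sums were 1.887 to 38.94 TPM over all samples, and the dendritic sums were 79.58 to 132 TPM in UT and 710 to 2859 TPM in LPS samples. The 16 macrophage markers summed to 27950 to 39740 TPM, of which Lyz2 alone gave 15700 to 33430 TPM, while Cd163 was at 0.112 to 1.12 TPM. Of these markers Mrc1 was lower by 1.68 and Cx3cr1 was higher by 1.37 in cGAS-/- UT cells. With LPS, 3 of the 16 were lower in cGAS-/- cells (Mrc1 at -1.99, C1qa at -1.47 and Ctss at -0.77) and 2 were higher (Cx3cr1 at 1.89 and Lyz2 at 0.80).

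In WT cells, LPS lowered nearly all the mitosis genes. Of 56 tested, 53 were lower in WT LPS than in WT UT (limma adjusted p under 0.05), against 23.3% of all genes tested, and 0 were higher (0 also at an unadjusted p under 0.05), against 4.31%. The median log2 fold change was -1.51, against -0.46 over all genes tested, and 15 genes were past -2, against 2.89% of all genes tested. For 58 of the 60 all LPS samples were below all UT samples, against 20.2% of genes listed above 0; the exceptions were Hmmr and Ncapg2. Without the filter, 54 of 60 were lower, against 9.52% of genes. Without WT LPS replicate 3, 49 were lower and the median was -1.32, against -0.29 over all genes. WT UT enters both this comparison and that of UT cells, so the pair share those samples.

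Over all 12 samples Birc5 fell most, to 1.03, 0.575 and 0.285 TPM in WT LPS, a log2 fold change of -3.45 ± 0.21 (limma adjusted p = 2.13e-06). Without WT LPS replicate 3 it was -3.29, and Ccnb2 at -3.80 and Ube2c at -3.50 then fell more. Ccnb2 was at 0, 0.161 and 1.35 TPM, Ube2c at 0, 0.491 and 0.557 TPM, and Ckap2l at 0, 0.292 and 0 TPM. Mki67 was at 0.628, 0.937 and 0.555 TPM (-3.01 ± 0.17, adjusted p = 1.64e-06) and Top2a at 0.278, 0.51 and 0.107 TPM (-3.09 ± 0.17, adjusted p = 1.58e-06). All of these lay below every cGAS-/- UT sample of the same gene except Ccnb2, whose highest WT LPS sample reached the cGAS-/- UT range. Pimreg was listed at 0 in all 3 WT LPS samples and in all 3 cGAS-/- LPS samples.

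By role, LPS lowered 3 of 3 proliferation genes, 10 of 11 spindle genes, 3 of 3 passenger genes, 6 of 7 checkpoint genes, 10 of 10 entry genes, 8 of 8 centromere and kinetochore genes, 4 of 4 cytokinesis genes, 4 of 4 kinesins and 5 of 6 condensin genes in WT cells. Cks2 fell to 4.29, 4.76 and 1.09 TPM and Cks1b to 1.19, 1.71 and 1.55 TPM. Cenpa was at 0.749, 0.133 and 0.0541 TPM and Spc25 at 0.0647, 0.161 and 0 TPM. The genes that did not pass were Hmmr, Bub3 and Ncapg2. Bub3 was at 6.17, 6.45 and 1.89 TPM in WT LPS, with the low value in replicate 3, and Ncapg2 was at 2.48, 4.68 and 1.57 TPM.

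Hmmr was uneven in WT LPS. It was at 0.697, 2.61 and 8.31 TPM in WT LPS, so replicate 3, the sample rich in Fth-ps3, was above and replicate 1 below every WT UT sample. The fitted change in WT was 0.25 ± 0.45 on the log2 scale (limma adjusted p = 0.691), or -0.39 if replicate 3 was left out (adjusted p = 0.278). In cGAS-/- cells Hmmr was at 0.443, 0.468 and 0.584 TPM without and at 2.15, 1.66 and 1.72 TPM with LPS, groups that did not overlap. That difference of 0.92 ± 0.45 missed the threshold over all 12 samples (adjusted p = 0.242) and passed it without WT LPS replicate 3 (adjusted p = 0.0145).

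In cGAS-/- cells 19 of 56 mitosis genes were lower with LPS (limma adjusted p under 0.05), against 9.06% of all genes tested, and 0 were higher (0 also at an unadjusted p under 0.05), against 4.76%. The median log2 fold change was -0.41, against -0.20 over all genes tested. LPS samples lay below all UT samples for 45 of the 60 genes, against 23.5% of genes listed above 0. The largest fall was that of Ncapg2, from 4.33, 4.51 and 4.91 TPM to 0.659, 1.22 and 0.677 TPM (-1.60 ± 0.27, limma adjusted p = 0.00198), the gene with the smallest difference between genotypes in UT cells. Cenpa fell from 1.99, 1.92 and 1.71 TPM to 0.0582, 0.0825 and 0.059 TPM (-1.43 ± 0.20, adjusted p = 0.000554). Birc5 was at 0.264, 0.484 and 0.235 TPM (-1.40 ± 0.21, adjusted p = 0.000876) and Mki67 at 0.703, 0.906 and 0.522 TPM (-0.87 ± 0.17, adjusted p = 0.00597). By role, 5 of 10 entry genes, 5 of 8 centromere and kinetochore genes, 2 of 3 proliferation genes, 2 of 11 spindle genes, 2 of 6 condensin genes, 1 of 3 passenger genes, 1 of 7 checkpoint genes, 1 of 4 cytokinesis genes and 0 of 4 kinesins were lower. Without the filter, 12 of 60 were lower, against 3.76% of genes. The count of 19 was 8 to 11 when any of the 6 cGAS-/- samples was left out, and 24 without WT LPS replicate 3, with Hmmr then higher.

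The size of the LPS effect differed between genotypes for 21 of the 56 genes (limma's interaction term, adjusted p under 0.05), all in the same direction, against 0.732% of genes tested. They had a smaller fall in cGAS-/- cells or, for Cks2 alone, a rise that did not pass (limma adjusted p = 0.471). None differed the other way, against 0.168%; at an unadjusted p under 0.05 the counts were 45 and 1. The difference, the LPS effect in cGAS-/- minus that in WT, was positive for 55 of 56, with a median of 0.95 against 0.27 over all genes tested. All 3 proliferation genes and 7 of 10 entry genes were among the 21, with 3 checkpoint, 2 spindle, 2 centromere and kinetochore genes and 1 each of the passenger, cytokinesis, kinesin and condensin groups. For Mki67 it was 2.14 ± 0.25 (limma adjusted p = 0.00237) and for Top2a 2.31 ± 0.24 (adjusted p = 0.00143), the only members of the 21 called under every alternative tried. All 12 samples enter this difference, so it shares samples with each comparison above. It equals the difference between genotypes with LPS minus that in UT cells. For 17 of the 21 all 6 LPS samples were under 1 TPM, and the value is then mostly the UT difference with its sign turned, as for Mki67, at -2.14 in UT cells and 0.00 with LPS. The exceptions were Birc5, Ccnb2, Cks1b and Cks2. Bub1, Foxm1, Kif18b and Shcbp1 passed the filter through WT UT alone, and without the filter the count was 17 of 60, against 0.322% of genes. The count was 9 to 11 when WT UT replicate 2 or 3 or any of the cGAS-/- samples was left out, 39 when WT LPS replicate 2 was, and 29 when WT LPS replicate 3 was. Without WT LPS replicate 3, 1 gene, Ncapg2, differed the other way (-1.23, limma adjusted p = 0.0419). With a pseudocount of 0.1 the count was 3.

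**Figure D4:**
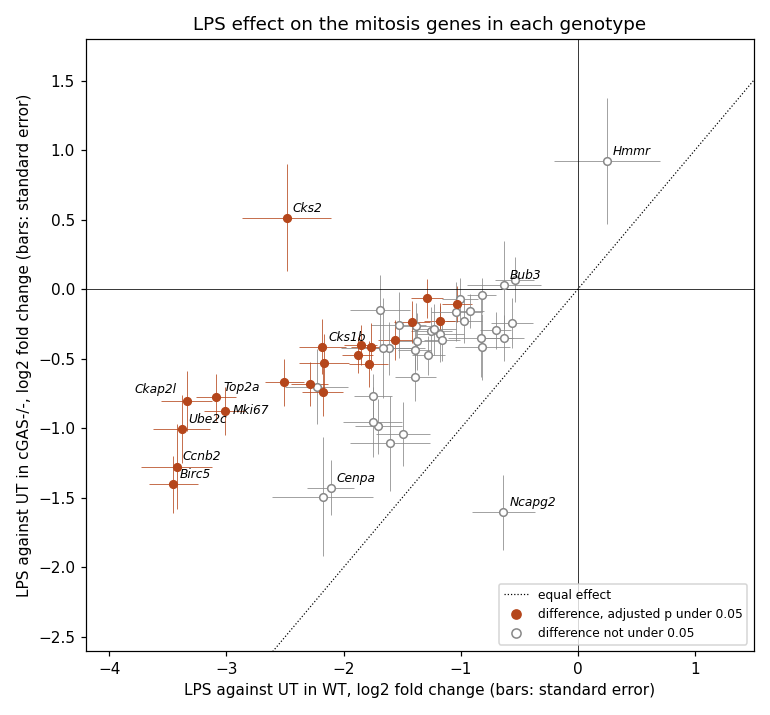
Log2 fold change of LPS against UT in WT (horizontal axis) and in cGAS-/- cells (vertical axis) for the 56 tested genes, on the log2(TPM + 1) scale with standard errors; the dotted line marks equal effects. Filled points are the 21 genes whose effect differed between genotypes. Nearly all points lie above the line, Cks2 lies above 0 on the vertical axis, and Ncapg2 lies below the line.

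After LPS, 0 of the 56 genes were lower in cGAS-/- than in WT cells in limma, against 1% of genes tested, and 1 was higher, against 1.36%. At an unadjusted p under 0.05 the counts were 3 and 3. The median log2 fold change was 0.00, against 0.20 over all genes tested, and 27 of 56 were negative. Groups did not overlap for 2 genes lower and 6 genes higher in cGAS-/- cells, against 3.52% and 7.54% of genes listed above 0. Mki67 was at 0.628, 0.937 and 0.555 TPM in WT and 0.703, 0.906 and 0.522 TPM in cGAS-/- LPS cells, a difference of 0.00 ± 0.17. Most values were under 1 TPM in both groups, where the log2(TPM + 1) scale compresses differences. The median SD of the 60 mitosis genes on that scale was 0.168 in WT LPS and 0.0869 in cGAS-/- LPS.

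Cks2 (chr13:51799268-51804807) was the gene that differed. It was at 15, 12.7 and 18.2 TPM in cGAS-/- LPS, each above the 4.29, 4.76 and 1.09 TPM of WT LPS and above the 10.9, 10.5 and 9.5 TPM of cGAS-/- UT. The log2 fold change between genotypes was 2.01 ± 0.38 (limma adjusted p = 0.0212); leaving out WT LPS replicate 3 gave 1.55 (adjusted p = 0.00467). The call held in 17 of 23 alternatives and was lost when any of the 3 cGAS-/- LPS samples was left out (adjusted p = 0.0691 to 0.107 in limma), with no filter on low values (0.0517), with only the samples compared (0.315) and with sample weights (0.127). Its LPS effect was -2.49 ± 0.38 in WT and 0.51 ± 0.38 in cGAS-/- cells, and only the change in WT passed the test (adjusted p = 0.000943 and 0.471). The difference of 3.001 ± 0.54 was the largest of the 56 (limma adjusted p = 0.0314), a call that held in 11 of 22 alternatives. Its paralogue Cks1b was at 1.19, 1.71 and 1.55 TPM in WT LPS and at 4.57, 2.71 and 3.16 TPM in cGAS-/- LPS, a difference of 0.84 ± 0.20 that missed the threshold (adjusted p = 0.0595) and passed it without WT LPS replicate 3 (adjusted p = 0.0163). The other genes that then passed were Ncapg2 at -1.28 and Tpx2, which targets Aurora A to the spindle, at -1.01.

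Other cell cycle lists were counted for their response to LPS as well. In WT cells LPS lowered 33 of 36 S phase genes, 20 of 36 G1 and E2F genes, 23 of 31 other mitotic genes and 7 of 22 cohesin and anaphase-promoting complex genes, against 23.3% of all genes tested, and raised 1 G1 and E2F gene, against 4.31%. The share of the cohesin list was near that background. In cGAS-/- cells the counts lowered were 15, 4, 4 and 1, against 9.06% of all genes tested, and of these only the S phase share was well above the background. The effect differed between genotypes for 3 S phase genes, 1 G1 and E2F gene, 3 other mitotic genes and 0 of the cohesin list, each with the smaller fall in cGAS-/- cells, against 0.732% of all genes tested. The 3 S phase genes (Cdc6, Rrm2 and Tk1), E2f8 and the mitotic gene Spc24 were under 1 TPM in every LPS sample. Their values are then mostly the UT difference with its sign turned, as for Rrm2, at -2.12 in UT cells and -0.09 with LPS.

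The fold changes are not centred on the median of all genes, and that median moved with the scaling. With TMM factors the all-gene median went from -0.46 to -0.09 for LPS in WT, from -0.20 to -0.02 for LPS in cGAS-/- and from 0.20 to 0.04 between genotypes with LPS. The medians of the mitosis genes were then -1.18, -0.31 and -0.04, and -0.92 between genotypes in UT cells.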

How the data were processed

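RNA-seq of 12 BMDM samples was analysed from 1 table of the whole series. The authors trimmed reads with fastp, aligned them with STAR to GRCm39 and quantified them with kallisto, as the submitters' processing notes name the tools; their versions are not given in the sources used here. What the authors deposited reads as TPM, with the transcripts of each symbol averaged; this unit is inferred from the numbers themselves. Read depth is unknown, and intervals for counting error cannot be had. The table stops partway through chromosome 13, so genes beyond it were not analysed here. It held 39 of 49 listed S phase genes and 38 of 41 G1 and E2F genes. Of the other mitotic list it held 33 of 68, and of the cohesin and anaphase-promoting complex list 22 of 29.

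A gene was kept if 3 or more of the 12 samples had 1 TPM or more after scaling. For this filter, and nowhere else, every sample was scaled up to the same sum, larger than that of any sample. Genes under 1 TPM in every sample as printed here could thus pass, such as Fam83d, at most 0.958 TPM. Values were taken as log2(TPM + 1), so fold changes of low genes are understated. The fit had 4 group means and a variance trend (limma 3.58.1, R 4.3.3), and p-values were adjusted by Benjamini and Hochberg over 11887 genes; a call is an adjusted p under 0.05. A second count used the study's threshold of 2 on the log2 scale. The members and lists were chosen with earlier results of these data known. Named genes were the 2 of each role with the highest mean over all samples, the extremes of each comparison, and members called against the direction of the rest; others named in passing were chosen after their values were seen. Sequence shared between transcripts was found with blastn 2.17.0 (at least 95% identity over 100 bases). Replicate numbers do not pair the samples: over 18 pairs with the same number, correlations of the deviations ran from -0.0315 to 0.0383.

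Alternatives were pseudocounts of 0.1 and 5, no filter, a filter of 5 TPM, TMM factors, quantile normalization, a common protein-coding total, only the samples compared, a replicate block, no trend, sample weights, and each sample left out in turn. One marker gene is not reported here.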

Additional observations from a re-analysis of the deposited data

Results flagged for a closer look

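The effect of LPS differed between genotypes by a test of the difference itself (limma's interaction term, adjusted p under 0.05) for 21 mitosis genes. The difference, cGAS-/- minus WT on the log2 scale, was 3.001 for Cks2, 2.53 for Ckap2l, 2.38 for Ube2c, 2.31 for Top2a, 2.15 for Ccnb2, 2.14 for Mki67 and 2.05 for Birc5. It was 1.83 for Ccna2, 1.77 for Cks1b, 1.64 for Cdca3, 1.60 for Plk1, 1.45 for Nusap1, 1.44 for Spc25, 1.41 for Nuf2 and 1.35 for Ncaph. It was 1.25 for Cdc20, 1.22 for Bub1, 1.19 for Pimreg, 1.18 for Kif18b, 0.95 for Foxm1 and 0.93 for Shcbp1. The call held least often for Cdc20 (3 of 22 alternatives) and Ccnb2 (4 of 22), and in 22 of 22 for Mki67 and Top2a. Pimreg was listed at 0 in all 6 LPS samples, so its value is the difference between genotypes in UT cells with the sign turned and adds nothing on the response to LPS. For 17 of the 21 all 6 LPS samples were under 1 TPM, and the value is then mostly that UT difference. Groups of 3 samples are too small for the test of single outlying samples.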

How the results depend on the processing

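Counts are of mitosis genes with an adjusted p under 0.05 in limma. Only the larger moves are listed by setting, so an unlisted setting need not have left a count unchanged. Leaving aside the replicate block, given further down, unlisted settings over all 12 samples gave 32 (TMM factors) to 49 (sample weights) for UT cells. They gave 42 (only the samples compared) to 55 (a common protein-coding total) for LPS in WT. For the difference of the LPS effect they gave 14 (quantile normalization) to 31 (pseudocount of 5). cGAS-/- UT against WT UT: 37 lower became 7 with a pseudocount of 0.1 and 17 of 33 tested with a filter of 5 TPM, and ran from 26 to 44 with 1 sample left out. cGAS-/- LPS against WT LPS: 0 lower became 2 with TMM factors, 2 with quantile normalization and 1 with a common protein-coding total (0 to 2 with 1 sample left out), and 1 higher became 2 with the 5 TPM filter, TMM factors, quantile normalization or no trend, and 0 with no filter, only the samples compared or sample weights (0 to 4 with 1 sample left out). LPS in WT: 53 lower became 29 of 33 with the 5 TPM filter (48 to 55 with 1 sample left out). LPS in cGAS-/-: 19 lower became 11 with a pseudocount of 5, 12 with no filter, 11 with TMM factors, 10 with quantile normalization, 31 with only the samples compared and 35 with sample weights (8 to 24 with 1 sample left out), and 0 higher became 2 with only the samples compared and 1 with sample weights (0 to 1 with 1 sample left out). Difference of the LPS effect: 0 lower became 1 with TMM factors or quantile normalization (0 to 1 with 1 sample left out), and 21 higher became 3 with a pseudocount of 0.1 and 11 with the 5 TPM filter (9 to 39 with 1 sample left out). The cause of these changes was not tested, and the 5 TPM filter also left fewer mitosis genes to test, 33 in place of 56. The fold change of Ncapg2 between genotypes in UT cells turned to 0.0212 with quantile normalization and ran from -0.1141 to 0.0067 with 1 sample left out.

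With a replicate block, although the numbers share nothing measurable, the difference of the LPS effect passed for 10 genes instead of 21, and the other counts were 32 for UT cells, 50 for LPS in WT and 16 for LPS in cGAS-/- cells. Under all 23 alternatives, 7 of the 37, 40 of the 53, 6 of the 19, 2 of the 21 and 0 of the 1 stayed called in the same direction where tested. Depth is unknown, and most LPS values lie under 1 TPM, where a pseudocount of 1 compresses differences.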
